A study of Talinum fruticosum with 36 samples.

Results

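The alpha- and beta-amylases of leaf starch breakdown were followed in Talinum triangulare, a herb that turns from ordinary C3 photosynthesis to crassulacean acid metabolism (CAM) when water runs short. The members were the rows of 10 Arabidopsis loci in a table of 21869 loci: the beta-amylases BAM1 (AT3G23920), BAM2 (AT4G00490), BAM3 (AT4G17090), BAM4 (AT5G55700), BAM5 (AT4G15210), BAM6 (AT2G32290) and BAM9 (AT5G18670), and the alpha-amylases AMY1 (AT4G25000), AMY2 (AT1G76130) and AMY3 (AT1G69830). They are the amylases by annotation, and the rule used none of their values. The filter on low counts kept 14052 loci, among them 9 of the 10 amylases, and left out AMY1. Plants had been watered for 28 days before water was withheld. Mature leaves were harvested after 0, 4, 9 and 12 days without water and after 2 days of re-watering that ended the longest drought. Each of these 5 stages has libraries from the middle of the light period (midday) and of the dark period (midnight), with 3 biological replicates, which makes 10 groups and 30 single-end libraries. The labels give C3 as the photosynthetic mode of days 0 and 4 and of the re-watered plants, and CAM for days 9 and 12. The labels name no transgene or agent in any group. Well-watered plants of the later dates are not part of the data, so drought, plant age and sampling day cannot be told apart in any comparison with day 0.

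Starch is built in the chloroplast by day and broken down at night. Kinases first phosphorylate the granule surface, beta-amylases then release maltose from the ends of the glucan chains, and alpha-amylases and debranching enzymes cut inside the chains or at the branches. Maltose leaves the plastid through a transporter and is turned into sugars in the cytosol. In CAM plants the starch or sugar broken down at night also feeds the phosphoenolpyruvate to which phosphoenolpyruvate carboxylase adds carbon dioxide. The roles given below for single amylases are known from Arabidopsis and were not measured in Talinum. There BAM1, BAM2 and BAM3 are active in the plastid, BAM4 and BAM9 are plastid proteins without catalytic activity, BAM5 lies outside the plastid and collects in the phloem, and BAM6 is a less studied relative of BAM5. AMY3 is the plastid alpha-amylase, AMY1 is secreted and AMY2 is predicted to be cytosolic.

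The libraries held between 4266915 and 8756533 counted reads, and the biological coefficient of variation over all loci was 0.173. PPC1, a phosphoenolpyruvate carboxylase gene of the CAM pathway, was at 348 to 572 CPM (read counts scaled to the library total) at midnight on day 0 and at 13103 to 14871 CPM at midnight on day 9. Of 4 leaf mesophyll markers 3 were in the table and summed to 20133 to 115468 CPM, while both seed storage markers in the table were at 0 in every library. The re-watered midday libraries differed in these sums: the mesophyll sum was 79884 and 65900 CPM in replicates 1 and 2 and 27053 CPM in replicate 3. The sum of the phloem markers, 4 of 6 in the table, was 304, 426 and 1068 CPM in the same 3 libraries. Whether these shifts took part in the amylase values of that group was not tested. All levels are CPM scaled with edgeR's TMM factors unless RPM, the authors' scaling of the contigs, is named. In bulk leaf RNA, fewer cells that express a gene and less RNA per cell cannot be told apart.

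Of the 10 loci, 7 moved in 3 ways over the drought (see the plot of levels by stage). BAM1, BAM5, BAM6 and the BAM2 locus had their highest levels at midday on day 9 or day 12. BAM9, and less steeply AMY3, climbed at midnight. BAM3 was a night transcript on day 0 whose midday level was higher and whose midnight level was lower on day 9. BAM4 and AMY2 were low in all libraries, and AMY1 was near 0 in most libraries.

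**Figure D1:**
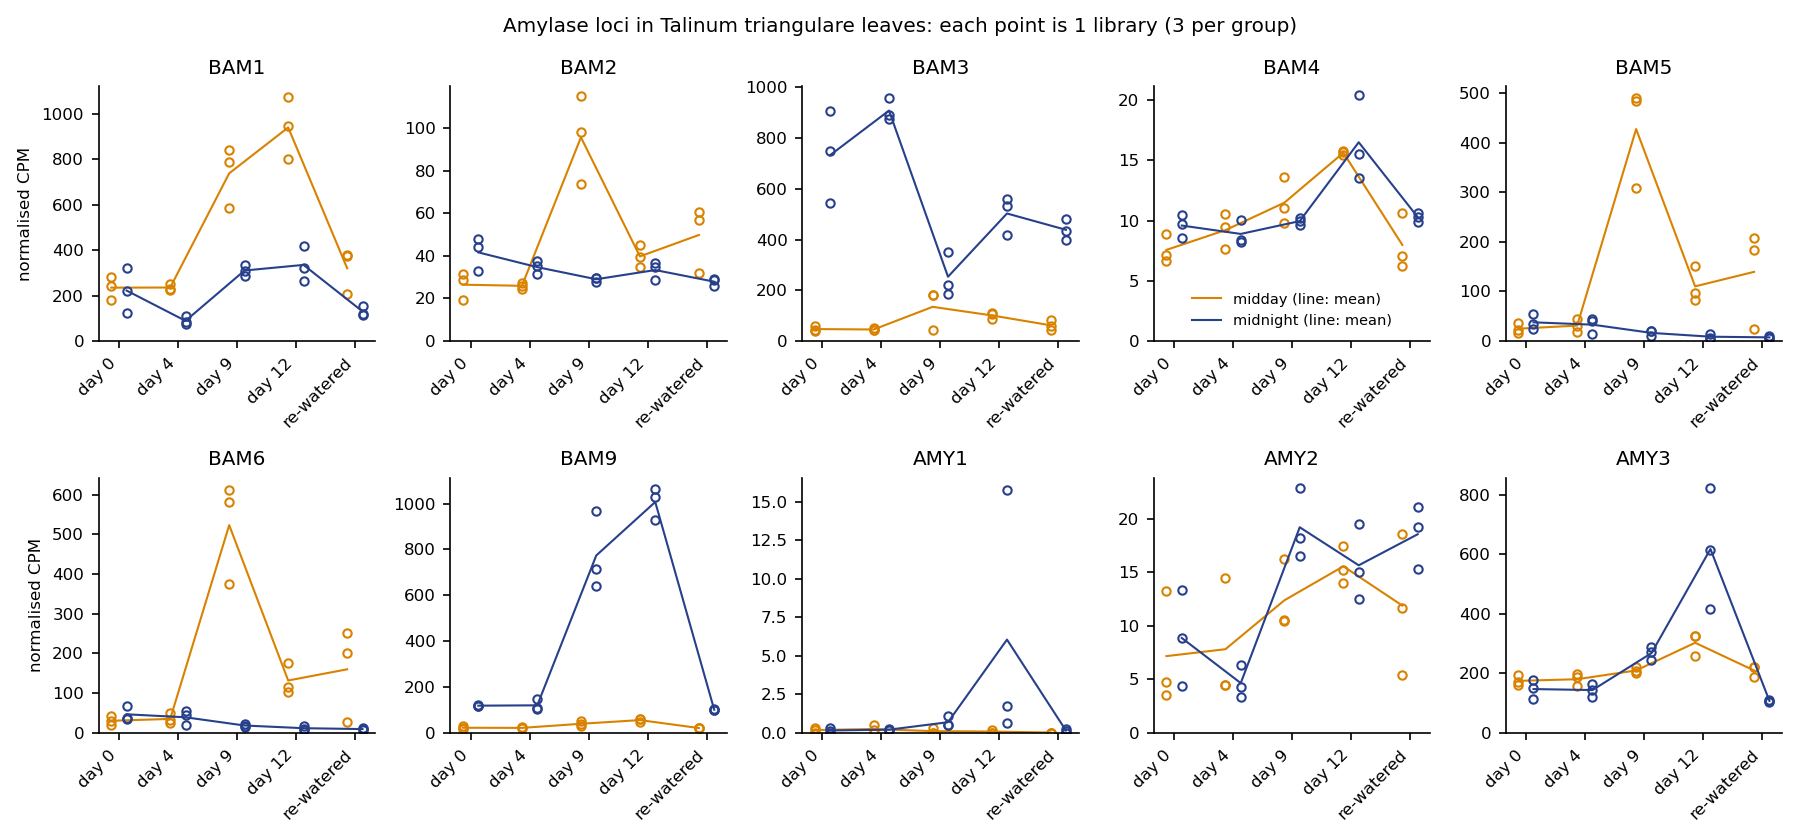
Levels of the 10 amylase loci in normalised CPM (y axis, linear, from 0, scaled separately for each locus) by stage (x axis), with orange for midday and blue for midnight. Each open circle is 1 library, 3 per group, and lines join group means; the midday peaks of BAM5 and BAM6 on day 9 (427 and 523 CPM) and the midnight climb of BAM9 to 1007 CPM on day 12 stand out from day 0.

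What a locus stands for differs among the members, because the authors placed each Talinum read on its best-matching Arabidopsis protein. A second deposited table gives contigs of a de novo Talinum assembly with the Arabidopsis locus each matched best. BAM1, BAM5, BAM9 and AMY3 had 1 contig each, BAM4 and AMY2 had 2, BAM2 and BAM3 had 3, and BAM6 and AMY1 had 0. The counts of BAM5 and BAM6 stayed in nearly the same proportion. The ratio of BAM6 to BAM5 counts had a median of 1.20 and ran from 0.886 to 1.51 over the 30 libraries. In log2 CPM the pair correlated with r = 0.996 across these libraries, which share stage and time of day. With 1 contig for both loci, BAM5 and BAM6 cannot be told apart as Talinum genes. They are counted below as the deposited table has them, as separate loci, and the counts with both summed to 1 feature are given beside the changes between stages. In the day-night comparisons each count that holds both loci is 1 lower with the pair summed.

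BAM2 is the locus where both tables part. At midday its locus level rose from 26.4 ± 6.37 CPM on day 0 to 95.6 ± 20.6 CPM on day 9 (SD, n = 3). The authors' mean RPM of its 3 contigs, added together, was 11.7 on day 0 and 9.67 on day 9. In the authors' deposited table the contigs of 176 and 121 residues changed at midday on day 9 by -0.27 (q = 0.419) and -0.47 (q = 0.22) on the log2 scale, and the third was listed at 0 in all groups. These contigs were short, with coding lengths of 528, 363 and 417 bases, and they share the stem of their contig name with the 4 contigs matched to BAM7, a DNA-binding relative of the beta-amylases. Across the 30 libraries the BAM2 locus was most like BAM6 (r = 0.851) and BAM5 (r = 0.836) among the amylases. Where the additional midday reads of the BAM2 locus came from was not tested, and its changes are given as those of the locus only. The contigs of the other amylases are given beside their loci below (see the plot of loci and contigs). On day 0 the contigs of BAM1 and AMY3 were higher at midnight than at midday (277 against 200 RPM and 222 against 175 RPM). Their TMM-scaled loci were not (222 against 235 CPM and 146 against 174 CPM). Before TMM scaling the loci had the order of the contigs. The raw counts of the 3 libraries summed to 5517 at midnight against 4270 at midday for BAM1, and to 3672 against 3162 for AMY3. The midnight libraries of day 0 held fewer reads in total, and the TMM factors of all libraries ran from 0.718 to 1.33.

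**Figure D2:**
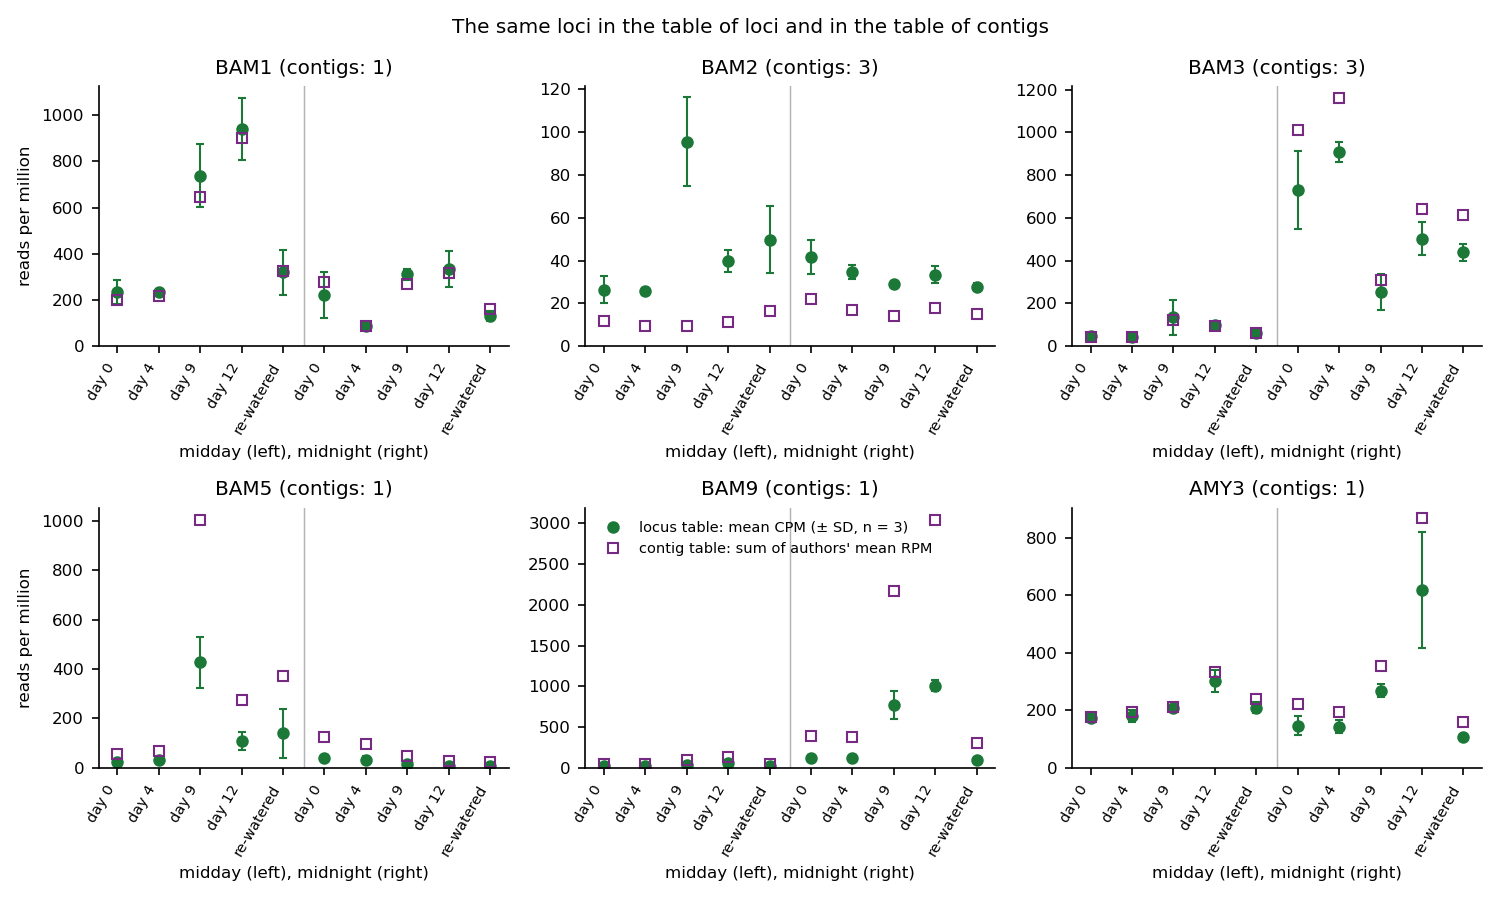
Levels in CPM or RPM (y axis, linear, from 0) of 6 amylase loci in the table of loci (green circles, mean CPM with SD of 3 libraries) and in the table of contigs (open purple squares, sum of the authors' mean RPM over the contigs of that locus, without error), by stage at midday (left of the grey line) and at midnight (right of it). BAM2 is the panel where the midday rise on day 9 is seen in the locus (95.6 CPM) and not in the contigs (9.67 RPM).

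On day 4, amylase transcripts were near their day 0 levels at midday. None of the 9 tested loci was called by edgeR (adjusted p under 0.05), against 0% of all 14052 loci; 0 amylases had an unadjusted p under 0.05, and DESeq2 and limma-trend also called 0. Their log2 changes lay between -0.05 (BAM3) and 0.33 (BAM5). At midnight 1 of 9 was called, BAM1, which fell, against 0.135% of all loci called lower.

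Day 9 brought the broad midday response: 7 of 9 amylase loci rose, with 23.4% of all loci called higher. They were BAM1, BAM2, BAM3, BAM4, BAM5, BAM6 and BAM9, and the median log2 change of the 9 was 1.52 beside 0.05 over all loci. With BAM5 and BAM6 summed, 6 of 8 rose, with a median of 1.20. The values of the remaining loci were 0.27 ± 0.18 for AMY3 and 0.80 ± 0.47 for AMY2 (SE). At midnight the amylases moved in both directions. BAM9, AMY3 and AMY2 rose, with 23.2% of all loci called higher, and BAM2, BAM3 and BAM6 fell, with 25.4% called lower. With the pair summed 3 rose and 2 fell at midnight. The midnight count of 6 was 3 without day 0 midnight replicate 2 and 3 without day 9 midnight replicate 1. The leaf marker sums shifted over the same days: at midday the mesophyll sum was 64858 to 115468 CPM on day 0, 38821 to 42255 CPM on day 9 and 33743 to 36960 CPM on day 12, and the sum of the 4 xylem markers was 519 to 607, 251 to 432 and 337 to 513 CPM. Their part in the amylase values was not tested.

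On day 12 all 9 tested amylases were higher at midday than on day 0, against 29.3% of all loci, with a median log2 change of 1.12 beside 0.08 over all loci. With the pair summed, 8 of 8 were higher, with a median of 1.11. At midnight BAM4, BAM9 and AMY3 rose, against 27.8% called higher, and BAM5 and BAM6 fell, against 29.8% called lower, or 3 and 1 with the pair summed. Between day 9 and day 12 few loci moved further. At midday BAM2, BAM5 and BAM6 fell (5.56% of all loci called lower), a count of 3 that was 2 with the pair summed and 1 without day 12 midday replicate 1 or replicate 2. At midnight BAM4 and AMY3 rose (3.57% called higher). This count of 2 was 1 without day 9 midnight replicate 3 or without day 12 midnight replicate 1. It was 4 without day 9 midnight replicate 2, where BAM3 (edgeR adjusted p = 0.0373) and AMY1 were called too. AMY1 passed the filter there because a group held fewer libraries.

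**Figure D3:**
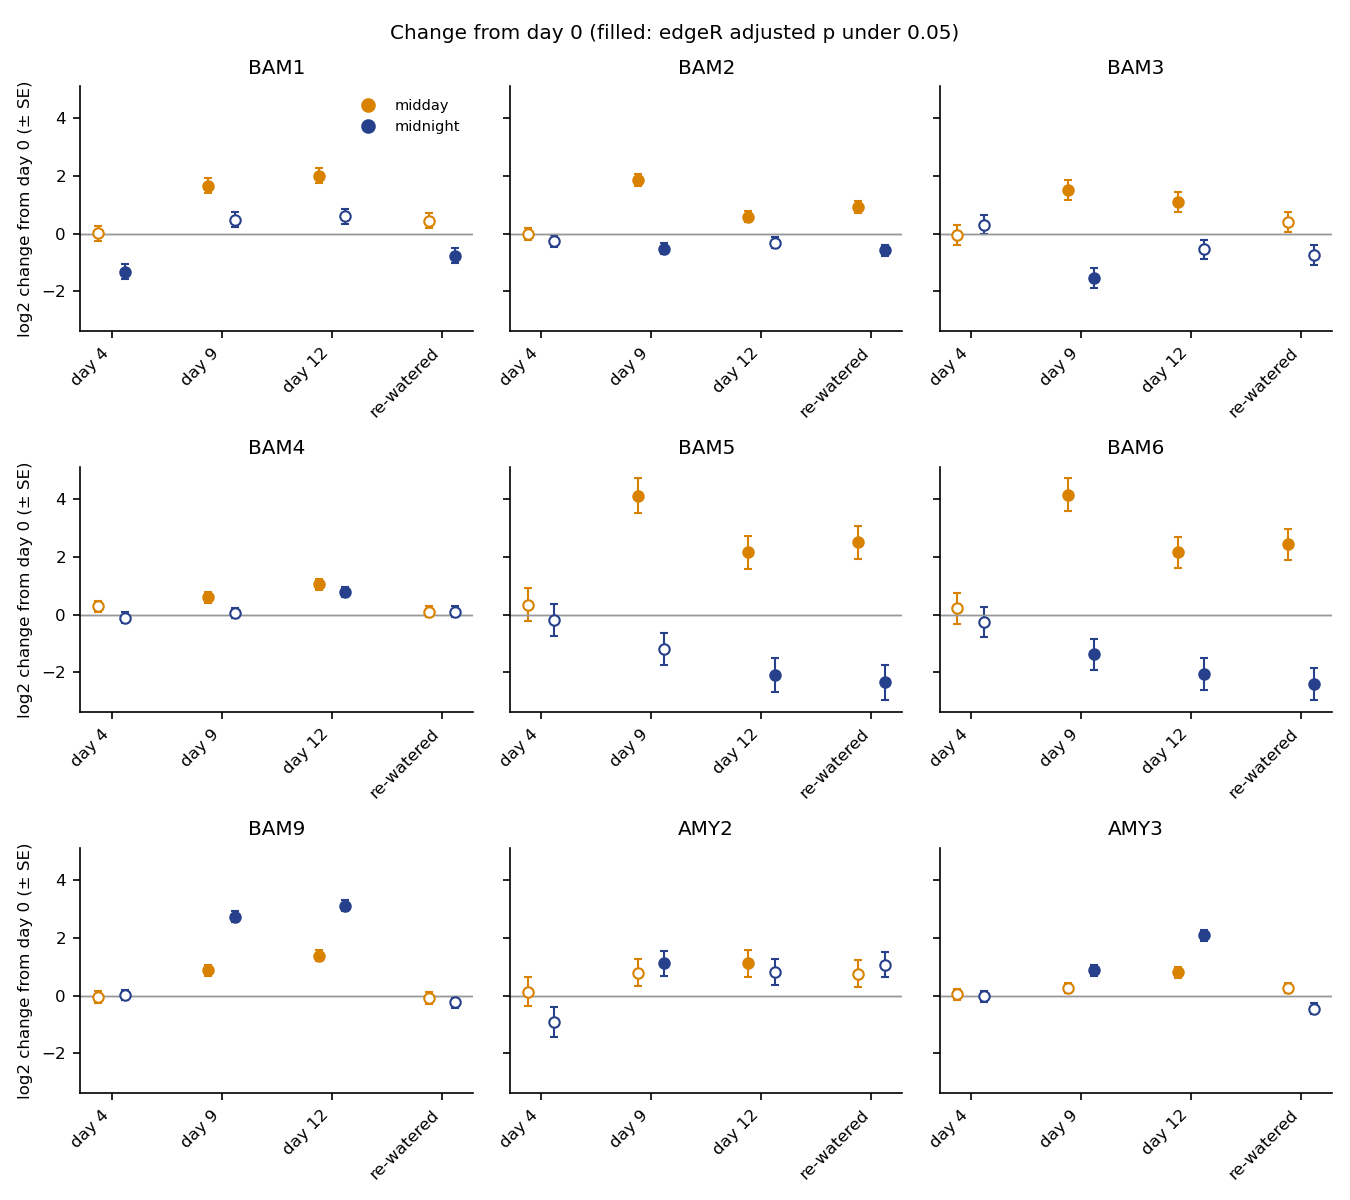
Change from day 0 at the same time of day in log2 units with its SE (y axis) for the 9 tested amylase loci by stage (x axis), from the edgeR fit of all 30 libraries. Orange is midday and blue midnight, and filled circles passed an adjusted p of 0.05; BAM5 and BAM6 reached 4.11 and 4.15 at midday on day 9, and BAM9 reached 3.10 at midnight on day 12.

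BAM1, a plastid beta-amylase that in Arabidopsis is switched by thioredoxin and acts in guard cells and under osmotic stress, became a midday transcript. Its midday level was 182, 283 and 241 CPM in replicates 1 to 3 on day 0, 843, 789 and 584 CPM on day 9, and 945, 803 and 1073 CPM on day 12. No library of day 9 or day 12 overlapped those of day 0. BAM1 rose by 1.65 ± 0.27 on day 9 (SE on the log2 scale, edgeR adjusted p = 1.4e-05) and by 2.00 ± 0.27 on day 12 (adjusted p = 5.53e-07). At midnight it was at 310, 334 and 288 CPM on day 9 and 264, 324 and 418 CPM on day 12. These midnight libraries overlapped those of day 0 (323, 222 and 122 CPM), and the changes of 0.48 ± 0.26 and 0.59 ± 0.26 did not pass the test (adjusted p = 0.128 and 0.0531). Its single contig, of 579 residues, went from 200 RPM at midday on day 0 to 901 RPM on day 12 in the authors' means.

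BAM1 was also the amylase that moved on day 4, downward and at midnight. It was at 75.4, 81.7 and 109 CPM there, below every midnight library of day 0, and fell by 1.32 on the log2 scale (SE 0.27, adjusted p = 0.038). The call was lost without any single midnight library of day 4 (adjusted p = 0.187, 0.128 and 0.0659 without replicates 1, 2 and 3) and without day 0 midnight replicate 1 (0.228) or 2 (0.073), while the log2 change stayed between -0.98 and -1.50. Fitting only the compared groups also lost the call (0.137). In the authors' deposited table the contig of BAM1 has a log2 change of -1.50 with q = 0.000195 in this comparison.

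The guard-cell markers, 5 of 6 in the table, went down in summed level as BAM1 went up at midday: 34.5 to 48.7 CPM on day 0, 17.6 to 22.9 CPM on day 9 and 11.9 to 13.0 CPM on day 12. Their part in the BAM1 values was not tested.

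BAM3, the main beta-amylase of night-time starch breakdown in Arabidopsis leaves, had the largest midnight surplus of the 9 tested loci in the well-watered plants. On day 0 it was at 42.6, 60.2 and 38.4 CPM at midday and at 543, 748 and 906 CPM at midnight. On day 9 the midday libraries held 42.2, 180 and 182 CPM and the midnight libraries 187, 351 and 222 CPM. Replicate 1 at midday thus stayed within the day 0 range while the other two were above it, and every midnight library lay below those of day 0. The midday level rose by 1.52 ± 0.35 (adjusted p = 0.00096), and the midnight level fell by 1.53 on the log2 scale (SE 0.34, adjusted p = 0.000618). On day 12 the midday rise was 1.10 ± 0.35 (109, 86.6 and 108 CPM, adjusted p = 0.00911). The midnight level was then 561, 416 and 531 CPM, a change of -0.54 ± 0.33 that did not pass the test (adjusted p = 0.167).

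The 3 BAM3 contigs did not all follow the midday course. The contig of 570 residues went from 34.0 RPM on day 0 to 99.3 RPM on day 9 and 90.0 RPM on day 12 at midday in the authors' means, with q = 0.000282 and 0.0033 in the authors' deposited table. The contig of 543 residues went from 6.33 to 17.3 and then 4.33 RPM (q = 0.106 and 0.461). The contig of 110 residues went from 1.33 to 4.00 and then 0.667 RPM (q = 0.181 and 0.322). All 3 were night transcripts on day 0, at 577, 355 and 80.0 RPM at midnight in this order.

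BAM9 had the largest midnight rise of the 9 tested loci. This catalytically inactive protein is listed as beta-amylase 3 in the annotation of the deposited table, while the locus called BAM3 here is listed there as chloroplast beta-amylase. At midnight BAM9 was at 114, 117 and 121 CPM on day 0 and at 103, 106 and 148 CPM on day 4. It reached 713, 966 and 642 CPM on day 9 and 929, 1062 and 1031 CPM on day 12. The groups of days 0 and 4 did not overlap those of days 9 and 12. The midnight rise was 2.72 ± 0.19 on day 9 (adjusted p = 1.22e-11) and 3.10 ± 0.20 on day 12 (adjusted p = 7.67e-13). At midday BAM9 also rose, by 0.88 ± 0.20 on day 9 and 1.38 ± 0.20 on day 12, but from 17.0 to 27.0 CPM on day 0 to no more than 58.5 CPM. The contig of BAM9, of 549 residues, went from 385 RPM at midnight on day 0 to 3045 RPM on day 12.

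BAM4, the other inactive plastid protein, was low in all 30 libraries (6.25 to 20.5 CPM). It rose at midday by 0.60 ± 0.19 on day 9 (adjusted p = 0.0124) and by 1.05 ± 0.19 on day 12 (adjusted p = 3.64e-05), and at midnight by 0.78 ± 0.18 on day 12 (adjusted p = 0.000452). All day 12 midday libraries, at 15.4 to 15.8 CPM, lay above the 6.63 to 8.90 CPM of day 0. The day 9 call failed when day 0 midday replicate 2 (0.52, adjusted p = 0.0559) or day 9 midday replicate 3 (0.46, adjusted p = 0.0843) was left out. It also failed with only the compared groups fitted (0.53, adjusted p = 0.0781). The midnight rise from day 9 to day 12, 0.73 ± 0.17 (adjusted p = 0.0114), failed the test when day 9 midnight replicate 3 or day 12 midnight replicate 1 was left out (0.0522 and 0.0854).

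BAM5 and BAM6 had the largest midday changes of the 9 tested loci. BAM5 was at 15.6, 21.8 and 37.0 CPM at midday on day 0 and at 484, 490 and 308 CPM on day 9. BAM6 was at 19.2, 28.1 and 41.4 CPM and then at 613, 582 and 375 CPM. Every day 9 library was above every day 0 library, and the midday rise was 4.11 ± 0.60 for BAM5 (adjusted p = 7.49e-06) and 4.15 ± 0.57 for BAM6 (adjusted p = 3.04e-06). Day 12 stood between, with BAM5 at 97.4, 82.0 and 151 CPM and BAM6 at 116, 101 and 177 CPM. BAM5 was then 2.16 ± 0.57 above day 0 (adjusted p = 0.00263) and its change from day 9 was -1.96 ± 0.54 (adjusted p = 0.0248). From day 9 to day 12 BAM6 fell by 1.99 (SE 0.51, adjusted p = 0.0156). The fall from day 9 was not called for either locus without day 12 midday replicate 1 (adjusted p = 0.11 and 0.0807) or 2 (0.0965 and 0.0684), nor for BAM5 without day 9 midday replicate 1 (0.0604) or 2 (0.0748).

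At midnight the same pair went the opposite way. BAM5 was at 34.0, 54.4 and 24.7 CPM on day 0, at 20.3, 9.52 and 19.2 CPM on day 9 and at 6.34, 4.94 and 14.8 CPM on day 12. All midnight libraries of days 9 and 12 lay below those of day 0. On day 12 BAM5 fell by 2.08 on the log2 scale (SE 0.59, adjusted p = 0.00462) and BAM6 fell by 2.06 (SE 0.55, adjusted p = 0.00287). On day 9 BAM6 passed the test (-1.37 ± 0.53, adjusted p = 0.0369) and BAM5 did not (-1.19 ± 0.57, adjusted p = 0.086). With the counts of both loci summed before the fit, the day 9 midnight change was -1.29 ± 0.54 (adjusted p = 0.0531). The BAM6 call was lost without day 0 midnight replicate 2 (0.153) and without day 9 midnight replicates 1, 2 or 3 (0.051, 0.0924 and 0.0864). Limma-trend (0.0679) and edgeR with no filter (0.0569) also lost the BAM6 call. The contig of BAM5, of 521 residues, went from 56.7 to 1004 RPM at midday and from 126 to 45.7 RPM at midnight between day 0 and day 9, with log2 changes of 3.83 (q = 5.66e-13) and -1.27 (q = 0.0305) in the authors' deposited table.

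The markers of the phloem, where BAM5 protein collects in Arabidopsis, summed to 237 to 344 CPM at midday on day 0, 421 to 496 CPM on day 9 and 394 to 472 CPM on day 12. Among them the sucrose exporter SWEET11 rose by 2.23 ± 0.21 at midday on day 9, while the companion-cell sucrose transporter SUC2 was at 0.03 ± 0.50. The part of phloem content in the BAM5 and BAM6 values was not tested.

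The BAM2 locus held 19.2, 28.6 and 31.4 CPM at midday on day 0 and 115, 98.0 and 73.9 CPM on day 9, without overlap. The rise of 1.86 ± 0.20 (adjusted p = 3.66e-08) was followed by a fall of 1.27 from day 9 to day 12 (log2, SE 0.20, adjusted p = 0.000115). On day 12 the locus was 0.59 ± 0.20 above day 0 (adjusted p = 0.0154), a call lost without day 0 midday replicate 1 (0.113) or day 12 midday replicate 3 (0.0721). The call was also lost with upper quartile scaling (0.0556) and with only the compared groups fitted (0.0666). At midnight on day 9 the locus was lower than on day 0 (-0.52 ± 0.20, adjusted p = 0.0301). That call was lost without day 0 midnight replicates 1 or 2 (0.0519 and 0.123) or day 9 midnight replicates 1 or 3 (0.0593 and 0.0867). As given above, the contigs of this locus did not show the midday rise.

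AMY3, the plastid alpha-amylase, rose late and mostly at night. At midnight it was at 178, 112 and 149 CPM on day 0, 272, 287 and 243 CPM on day 9 and 822, 417 and 613 CPM on day 12, with no overlap between these 3 groups. The midnight rise was 0.87 ± 0.19 on day 9 (adjusted p = 0.000362) and 2.08 ± 0.19 on day 12 (adjusted p = 7.87e-10), and 1.21 ± 0.19 between days 9 and 12 (adjusted p = 0.000207). At midday AMY3 was at 324, 257 and 325 CPM on day 12, above the 160 to 192 CPM of day 0, a rise of 0.80 ± 0.19 (adjusted p = 0.000684). The contig of 910 residues went from 222 to 866 RPM at midnight between days 0 and 12.

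AMY1 was close to absent except at midnight on day 12. In every library of the other 9 groups it stayed at or under 1.07 CPM, and at midnight on day 12 it had 122, 5 and 18 counts, or 15.8, 0.602 and 1.73 CPM. The group thus rests on replicate 1, and the locus did not pass the filter on low counts. With no filter, edgeR gave it a log2 change of 5.41 ± 1.08 at midnight on day 12 (adjusted p = 0.000216), and the authors' deposited table lists 4.20 (q = 2.83e-07). A fold of so low a locus depends on the prior count.

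AMY2 was low throughout (3.34 to 22.9 CPM) and its libraries spread widely on day 0, with 3.50, 13.3 and 4.71 CPM at midday and 13.4, 8.83 and 4.38 CPM at midnight. It was called at midday on day 12 (1.12 ± 0.47, adjusted p = 0.0472) and at midnight on day 9 (1.11 ± 0.43, adjusted p = 0.0369). At midday on day 12 its libraries, at 14.0 to 17.5 CPM, lay above those of day 0. Without day 0 midday replicate 2 the midday change was 1.93, and the call was lost without day 0 midday replicates 1 or 3 (0.202 and 0.161), without day 12 midday replicates 1, 2 or 3 (0.0765, 0.0635 and 0.111), and with RLE scaling (0.0676), upper quartile scaling (0.0788) or no filter (0.0599). Fitting only the compared groups lost this midday call too (0.0625). The midnight call was lost without day 0 midnight replicates 2 or 3 (0.0764 and 0.17) or day 9 midnight replicates 1 or 2 (0.112 and 0.0815).

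Midnight was also set against midday within each stage (see the plot of midnight over midday). On day 0, 3 of 9 amylase loci were higher at midnight, against 22.9% of all loci: BAM3 (3.96 ± 0.38, adjusted p = 6.57e-09), BAM9 (2.49 ± 0.20, adjusted p = 1.5e-10) and BAM2 (0.65 ± 0.20, adjusted p = 0.00948). The BAM2 call was lost without day 0 midday replicate 1 (0.0816) and with only the compared groups fitted (0.0735). On day 4, BAM3 and BAM9 were higher at midnight (22.4% of all loci called higher) and BAM1 was lower (19.5% called lower), at -1.41 ± 0.27 (adjusted p = 0.000125).

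On day 9, BAM3 and BAM9 were higher at midnight (24% of all loci called higher) and BAM1, BAM2, BAM5 and BAM6 were lower (25.6% called lower). BAM9 stood at 4.34 ± 0.21 and BAM5 and BAM6 at -4.70 ± 0.62 and -4.89 ± 0.59. The night surplus of BAM3 was down to 0.91 ± 0.34 (adjusted p = 0.0277), and it was not called when day 9 midday replicate 1 was left out (0.49, adjusted p = 0.134) nor when day 9 midnight replicate 2 was (0.59, adjusted p = 0.196). With only the compared groups fitted it was not called either (0.90, adjusted p = 0.285). On day 12, BAM3, BAM9 and AMY3 were higher at midnight (27.2% called higher) and BAM1, BAM5 and BAM6 were lower (27.5% called lower). BAM9 then stood at 4.22 ± 0.21, BAM3 at 2.32 ± 0.35 and AMY3 at 1.03 ± 0.19.

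**Figure D4:**
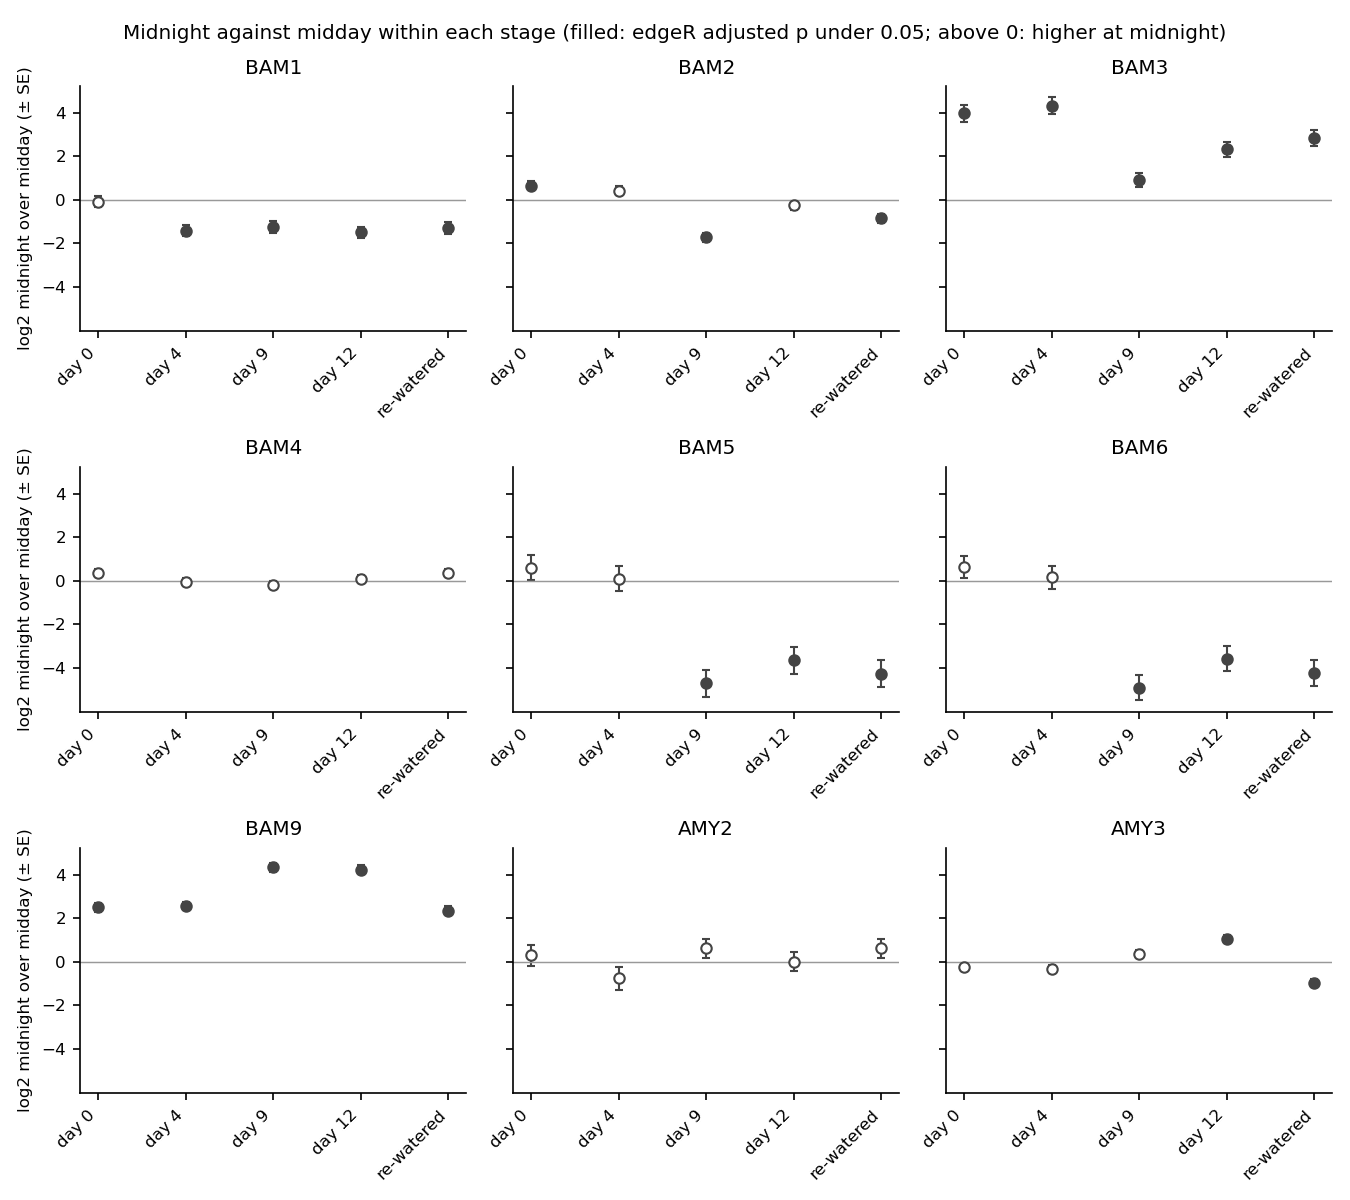
Midnight over midday in log2 units with its SE (y axis, above 0 means higher at midnight) for the 9 tested amylase loci at each stage (x axis), from the edgeR fit of all 30 libraries; filled circles passed an adjusted p of 0.05. BAM9 stayed above 0 at all 5 stages and was highest on days 9 and 12 (4.34 and 4.22), BAM3 dipped to 0.91 on day 9, and BAM5 and BAM6 were at -4.70 and -4.89 on day 9.

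The change of the day-night difference was tested directly, as midnight minus midday at a stage less the same on day 0. On day 4, edgeR called 0 of 9 amylases (0% of all loci), with 1 unadjusted p under 0.05 and 0 calls by DESeq2 and limma-trend. On day 9, BAM9 shifted towards the night (10% of all loci shifted that way) by 1.85 ± 0.27 (adjusted p = 1.73e-05). BAM1, BAM2, BAM3, BAM5 and BAM6 shifted towards the day (14.2% of all loci), by between -1.17 ± 0.37 for BAM1 and -5.52 ± 0.77 for BAM6. The shift of BAM3 was -3.05 ± 0.49 (adjusted p = 7.2e-05), made up of its higher midday and its lower midnight level. The BAM1 call on day 9 was lost without day 0 midday replicate 1 (adjusted p = 0.0608), day 0 midnight replicate 1 (0.105) or day 9 midday replicate 1 (0.0524). Fitting only the compared groups lost it as well (0.0586).

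On day 12, BAM9 and AMY3 shifted towards the night (15.2% of all loci), by 1.72 ± 0.27 (adjusted p = 1.53e-05) and 1.28 ± 0.26 (adjusted p = 0.000407). The same comparison gave shifts towards the day (18.6% of all loci) for BAM1 (-1.41 ± 0.37), BAM2 (-0.91 ± 0.28), BAM3 (-1.64 ± 0.48), BAM5 (-4.24 ± 0.82) and BAM6 (-4.21 ± 0.77). The shift of BAM2 was not called without day 0 midday replicate 1 (adjusted p = 0.0503).

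After 2 days of re-watering BAM9 and AMY3 had fallen from day 12, while BAM5 and BAM6 were still called higher than on day 0 at midday. Against day 12, BAM1, BAM4, BAM9 and AMY3 fell at midday (24.8% of all loci called lower) and the same 4 loci fell at midnight (20.6% called lower). BAM9 was at 97.0, 99.9 and 102 CPM at midnight, a fall of 3.34 from day 12 on the log2 scale (SE 0.20, adjusted p = 5.9e-13), and -0.24 ± 0.18 from day 0 (adjusted p = 0.378). AMY3 was at 104, 108 and 107 CPM at midnight, a fall of 2.54 from day 12 (SE 0.19, adjusted p = 5.63e-11). These 3 libraries also lay below all midnight libraries of day 0 (112 to 178 CPM), and the change from day 0 was -0.46 ± 0.19 (adjusted p = 0.0805 by edgeR). It passed the test by DESeq2 (adjusted p = 0.0457), in edgeR without day 0 midnight replicate 2 (0.0373) and in the authors' deposited table (q = 0.0444). Its midday fall of 0.53 (SE 0.18, adjusted p = 0.019) was lost without day 12 midday replicates 1 or 3 (0.0656 and 0.0653) or re-watered midday replicate 1 (0.0741). Fitting only the compared groups lost that call as well (0.0613).

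Against day 0, BAM2, BAM5 and BAM6 were higher at midday after re-watering (4.09% of all loci called higher). BAM5 was at 25.2, 209 and 184 CPM and BAM6 at 27.3, 251 and 200 CPM in replicates 1 to 3, and the BAM2 locus at 32.0, 56.6 and 60.7 CPM. Replicate 1 lay inside the day 0 range for BAM5 and BAM6 and just above it for BAM2, while replicates 2 and 3 were above it in all 3 loci. The changes were 2.50 ± 0.57 for BAM5 (adjusted p = 0.0118), 2.44 ± 0.54 for BAM6 (adjusted p = 0.00918) and 0.92 ± 0.20 for BAM2 (adjusted p = 0.00743). The count of 3 was 2 with the pair summed, 0 without day 0 midday replicate 1 (adjusted p = 0.0851, 0.0728 and 0.0672 for BAM5, BAM6 and BAM2) and 0 without re-watered midday replicate 3 (0.0882, 0.067 and 0.08). With only the compared groups fitted, BAM5, BAM6 and BAM2 were not called (adjusted p = 0.233, 0.233 and 0.245). BAM5 alone also just missed the threshold without re-watered midday replicate 2. Replicate 3 is the library with the high phloem and low mesophyll marker sums given above.

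At midnight after re-watering 4 loci were lower than on day 0 (11.3% of all loci called lower). BAM5 was at 6.18, 6.71 and 9.15 CPM, below all day 0 midnight libraries, and fell by 2.35 on the log2 scale (SE 0.61, adjusted p = 0.00999), and BAM6 fell by 2.40 (SE 0.57, adjusted p = 0.00552). BAM1 (-0.77 ± 0.26, adjusted p = 0.0378) and BAM2 (-0.58 ± 0.20, adjusted p = 0.0384) were the others. The BAM1 change was -0.43 without day 0 midnight replicate 1 (adjusted p = 0.251), and its call was also lost without day 0 midnight replicate 2 (0.0859) and re-watered midnight replicates 1 or 3 (0.116 and 0.128). The BAM2 call was lost without day 0 midnight replicates 1 or 2 (0.075 and 0.161) and without re-watered midnight replicates 1, 2 or 3 (0.0752, 0.124 and 0.0839). Limma-trend lost the calls of BAM1 (0.0756) and BAM2 (0.0523), and upper quartile scaling lost that of BAM2 (0.0505). With only the compared groups fitted, BAM1 and BAM2 were not called either (0.125 and 0.0661). The count of 4 was 3 with the pair summed and 2 without re-watered midnight replicate 1 or 3.

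The day-night difference also remained apart from day 0 for these loci. After re-watering BAM3 and BAM9 were higher at midnight (23.6% of all loci called higher) at 2.82 ± 0.36 and 2.35 ± 0.20, and BAM1, BAM2, BAM5, BAM6 and AMY3 were lower (23.5% called lower). Tested against day 0, BAM1, BAM2, BAM5 and BAM6 were shifted towards the day (4.28% of all loci), by -1.22 ± 0.37, -1.50 ± 0.28, -4.85 ± 0.84 and -4.84 ± 0.78. BAM9 was not called in that test (-0.14 ± 0.27, adjusted p = 0.808), nor was BAM3 (-1.14 ± 0.48, adjusted p = 0.15). The BAM1 shift (adjusted p = 0.046) was lost without day 0 midday replicates 1 or 3 (0.143 and 0.0731), day 0 midnight replicates 1 or 2 (0.141 and 0.0706), re-watered midday replicates 2 or 3 (0.118 and 0.124) or re-watered midnight replicates 1 or 3 (0.105 and 0.102). Upper quartile scaling (0.0595), limma-trend (0.0817) and fitting only the compared groups (0.203) lost it too.

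Levels of different amylases can be set side by side per length only for the contigs, as the authors' mean RPM per kilobase of coding length. On this scale BAM3 led the family at midnight on day 0, with 337 for its contig of 570 residues, followed by BAM9 (234), BAM1 (159), AMY3 (81.3) and BAM5 (80.4). The BAM3 contigs of 543 and 110 residues were at 218 and 242. At midnight on day 12 BAM9 was at 1849, AMY3 at 317, the BAM3 contig of 570 residues at 243 and BAM1 at 182. The BAM3 contigs of 543 and 110 residues were then at 113 and 123. At midday on day 9 BAM5 led with 642 ahead of BAM1 (371), and at midday on day 12 BAM1 led with 519 ahead of BAM5 (175). These means carry no error, so the order is a description. The place of BAM3 in it depends on the contig taken and on whether its contigs are added together.

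Of the other genes of starch breakdown, a list of 18 loci that were all tested, most rose at midday and more fell than rose at midnight. At midday on day 9, 12 of 18 rose, against 23.4% of all loci called higher (median log2 change 0.91 beside 0.05 over all loci). On day 12, 13 rose, against 29.3%, and 1 fell, against 3615 of 14052 loci called lower (median 1.18 beside 0.08). GWD1, the kinase that phosphorylates starch first, rose by 2.26 ± 0.26 and 3.08 ± 0.27 on these days, and ISA1, a debranching enzyme, by 1.59 ± 0.16 on day 12. At midnight on day 9, 1 rose and 9 fell, against 23.2% and 25.4% of all loci (median -0.34 beside 0.01 over all loci). On day 12, 2 rose and 10 fell, against 27.8% and 29.8% (median -0.66 beside 0.01). MEX1, the plastid maltose exporter downstream of the beta-amylases, fell by 2.04 and 2.71 at midnight on the log2 scale (SE 0.19 and 0.20), and SEX4, a glucan phosphatase, by 1.77 and 2.51 (SE 0.24 and 0.25). ESV1, a protein that protects the granule, and ISA2, a partner of ISA1, were the loci that rose at midnight on day 12, by 3.87 ± 0.47 and 0.44 ± 0.14. In the test of the day-night difference on day 12, 16 of 18 shifted towards the day, against 18.6% of all loci. Towards the night 1 shifted, against 15.2%. The median was -1.75, beside -0.91 for the 9 amylases (-0.60 for 8 with BAM5 and BAM6 summed) and -0.03 over all loci. BAM7 and BAM8, the DNA-binding relatives, moved less: at midday on day 12 they rose by 0.68 ± 0.16 and 0.52 ± 0.17.

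The loci most like each amylase across the 30 libraries, by Pearson correlation of log2 CPM among loci of at least 10 CPM on average, were mostly outside starch breakdown. All 30 libraries share the 10 groups, so the coefficients describe shared stage and hour. Ranked on the 10 group means instead, 10 of the 27 loci were the same, with 0 of 3 for BAM9 and for AMY2. For BAM9 they were a DUF647 protein (AT5G49820, r = 0.973), a tyrosine phosphatase family protein (AT1G05000, r = 0.973) and the protease LON2 (AT5G47040, r = 0.967). For BAM3 they were AT2G15890 (r = 0.940), the UDP-sugar pyrophosphorylase AT5G52560 (r = 0.929) and a DNAJ protein (AT5G23240, r = 0.927). After each other, BAM5 was most like AT4G21570 (r = 0.890) and the glucose-6-phosphate translocator GPT2 (AT1G61800, r = 0.885), and GPT2 came next for BAM6 as well (r = 0.887). BAM1 was most like a transporter of the major facilitator family (AT2G16660, r = 0.936), and AMY3 most like AT2G39940 (r = 0.927). For AMY2 the first 3 included the cysteine proteinases AT3G43960 (r = 0.837) and AT4G36880 (r = 0.821). BAM4 reached 0.831 at most (AT1G33420).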

How the data were processed

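Leaf RNA was sequenced by the authors as 150 bp single reads, 12 libraries to a lane per the labels (the lane of a library is not given in the sources used here). Per the file headers, the authors matched reads in protein space with BLAT to a reduced Arabidopsis TAIR10 protein set, best hit per read, and deposited the raw read count of each locus and library, tested here. For 39781 contigs the authors deposited group means in RPM. The log2 fold changes and q-values of both deposited tables are the authors' own, from DESeq2 per the file headers. CASAVA 1.8.2 is named in the submitters' processing notes. The 6 paired-end libraries were not analysed here.

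Counts were fitted with edgeR 4.0.16 in R 4.3.3 (filterByExpr, TMM, robust quasi-likelihood test, 10 group coefficients, 20 residual degrees of freedom). Adjusted p is the Benjamini-Hochberg value over the 14052 loci tested in each of 21 contrasts, two-sided, called under 0.05. With 3 libraries against 3, exact permutation of 1 locus cannot pass 0.05. A simulation of day 9 against day 0 at midday recovered 63.3% of 98 loci changed by 1 log2 unit. Of 99 loci changed by 2 it recovered 94.9%. It gave every locus the same spread and left most of its 13769 loci unchanged, while the data had 6247 calls. The recovered shares are thus not the power for any single amylase. At these depths 3 counts equal 0.343 to 0.703 CPM.

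Alternatives tried were upper quartile and RLE scaling, limma-trend (limma 3.58.1, log2 CPM, prior count 2), DESeq2 1.42.0, omitting the filter, requiring 5 CPM in 3 libraries, fitting the compared groups alone, adding the replicate number as a block, and leaving out each library. Summing BAM5 and BAM6 counts was added after the data were seen. Every amylase could be named in any contrast, and for each amylase the 3 most similar loci. Of the starch breakdown list, the rule named the 4 called loci with the smallest adjusted p. ISA2 was named beyond that rule, as a locus that rose at midnight on day 12. SWEET11 and SUC2 were also named beyond it, as single phloem markers. The members, lists and tests were chosen with earlier results of these data known.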

Additional observations from a re-analysis of the deposited data

Results flagged for a closer look

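The response to drought differed between midday and midnight for several amylase loci, by edgeR's direct test of the midnight response less the midday response (log2 units, negative where the shift was towards midday). On day 9 the difference was -1.17 for BAM1, -2.38 for BAM2, -3.05 for BAM3, -5.30 for BAM5, -5.52 for BAM6 and 1.85 for BAM9. On day 12 it was -1.41 for BAM1, -0.91 for BAM2, -1.64 for BAM3, -4.24 for BAM5, -4.21 for BAM6, 1.72 for BAM9 and 1.28 for AMY3. After re-watering it was -1.22 for BAM1, -1.50 for BAM2, -4.85 for BAM5 and -4.84 for BAM6. The values of BAM5 and BAM6 are those of loci that cannot be told apart.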

How the results depend on the processing

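Of 189 pairs of an amylase and a contrast, 90 were called, 69 of them under every alternative and 75 under every alternative that kept all libraries. None of these 90, nor the 20 called only under an alternative, changed sign. Of the 79 pairs called nowhere, 35 changed sign under at least 1 setting. Fitting the compared groups alone, which leaves fewer libraries to estimate the spread, gave 0 amylases for re-watered against day 0 at midday (main 3), 0 for day 4 against day 0 at midnight (main 1), 2 for re-watered against day 0 at midnight (main 4) and 5 for midnight against midday on day 4 (main 3). Limma-trend gave 2 for re-watered against day 0 at midnight, and the cause was not tested. Of the single amylase calls, 14 were lost with the compared groups alone, 4 with upper quartile scaling and 4 with limma-trend. For the 18 starch breakdown loci the compared groups alone gave 0 for re-watered against day 0 at midday (main 2), 4 for day 12 against day 9 at midday (main 2), 5 for the same at midnight (main 3), 11 for re-watered against day 12 at midnight (main 7) and 4 for the day-night difference after re-watering (main 9). DESeq2 gave 1 for day 4 against day 0 at midnight (main 0) and 5 for day 12 against day 9 at midnight. With each library left out, the amylase count for re-watered against day 0 was 0 to 4 at midday and 2 to 4 at midnight. Against day 0 at midnight it ran from 0 to 1 for day 4 and from 3 to 6 for day 9. For day 12 against day 9 it ran from 1 to 3 at midday and from 1 to 4 at midnight. That 4 included AMY1, which the filter let in when a group held fewer libraries. The starch breakdown count ran from 0 to 5 for re-watered against day 0 at midday, 0 to 2 for day 4 against day 0 at midnight, 0 to 2 for day 12 against day 9 at midday and 4 to 6 for re-watered against day 12 at midnight. Over all loci, day 4 against day 0 at midnight had 26 calls, 234 with DESeq2 and 0 to 672 with a library left out, and re-watered against day 0 at midday had 962, 0 with the compared groups alone and 138 to 1975 with a library left out. Upper quartile scaling moved the median of all loci by -0.13 at midday on day 12, and the share of calls that were higher from 59.8% to 48.3% for re-watered against day 0 at midday and from 31.6% to 45.8% for the day-night difference after re-watering.

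The residuals showed no clear pairing of libraries by replicate number, though this check cannot exclude a pairing. Of 135 pairs with the same number, 20 had residuals correlated above 0.1. Their mean r was 0.002, beside -0.001 for pairs with different numbers, and their r ran from -0.41 to 0.38. Of 30 libraries, 13 correlated best with their own number. With the number as a block, 2 amylase results crossed the threshold: the day-night shift of BAM1 after re-watering was -1.23 with an adjusted p of 0.0549, and the midnight rise of BAM3 from day 9 to day 12 reached 0.0447. The low counts of AMY1, AMY2 and BAM4 limit the precision of their values.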
